A study of Mus musculus with 12 samples.

Results

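The interferon-induced antiviral effectors of leukemic blasts were described here through 10 genes: Ifit1, Ifit2 and Ifit3, the oligoadenylate synthetases Oas1a, Oas2 and Oas3, the synthetase-like genes Oasl1 and Oasl2, Rsad2, which encodes viperin, and Eif2ak2, which encodes the kinase PKR. They were chosen by gene symbol, and all 10 were found among the 24454 genes of the deposited table. The study asked which genes depend on STAT3β, the shorter isoform of the transcription factor STAT3, in acute myeloid leukemia. Fetal liver cells of wildtype (WT) or STAT3β-deficient (Δβ) mice had been transformed with a retrovirus that couples the fusion oncogene MLL-AF9 to the fluorophore Venus and injected into the tail vein of young male NSG mice (NOD.Cg-Prkdcscid Il2rgtm1Wjl/SzJ), which lack functional T, B and NK cells. Venus-positive blasts were sorted from the spleen (SP) and bone marrow (BM) of diseased animals and sequenced as poly-A enriched libraries. The 4 groups were WT SP, Δβ SP, WT BM and Δβ BM with 3 libraries each, 12 in all. All groups shared the MLL-AF9 driver, the NSG host and the diseased state, and the labels name no treatment. The labels give neither the time of sampling nor the animal of each library, so p-values measure the spread between these libraries, which may be technical in part. An exact permutation test of 3 libraries against 3 cannot give a p below 0.1, and tests were therefore fitted across all genes. Values are normalized counts, that is, reads on a gene divided by 1 size factor per library.

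Type I interferons bind the IFNAR receptor, whose kinases JAK1 and TYK2 pass the signal to the transcription factor complex ISGF3, which holds IRF9 and binds the interferon-stimulated response element (ISRE) in the promoters of antiviral genes. IFNγ acts through the gamma-activated sequence (GAS). OAS enzymes sense double-stranded RNA and make short oligoadenylates that switch on the RNA-degrading enzyme RNase L. PKR senses the same kind of RNA and halts translation by phosphorylating an initiation factor. IFIT proteins bind foreign RNA and block its translation, and viperin makes a nucleotide analog that stops viral RNA synthesis.

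The ISRE is shown first because it is the element that this family is known for. RefSeq promoter windows on GRCm38.p6, from 250 bases before to 50 bases after an annotated start, were given for 9 of the 10 genes, with 2 windows for Ifit2, and none was used for Oas2. The ISRE core GAAANNGAAA was searched on both strands and was found in the windows of 6 of these 9 genes: Ifit1, Ifit3, Oas1a, Oas3, Rsad2 and Eif2ak2. Of all 32851 promoter windows of that length 3.44% held it, which is 3.99% of 27025 genes. The windows of Ifit2, Oasl1 and Oasl2 did not hold these letters. The GAS core TTCNNNGAA was found in the windows of Ifit2, Oas1a and Eif2ak2, 3 of 9 genes, against 8.30% of all windows and 9.55% of genes, and no GAS match overlapped an ISRE match. The following 4 windows, written 5′ to 3′ on the strand of the gene with ISRE cores in capitals, are those of genes described in detail below, Eif2ak2, Oas1a, Rsad2 and, as a window without the core, Oasl2.
Eif2ak2, chr17:78882523-78882822, minus strand: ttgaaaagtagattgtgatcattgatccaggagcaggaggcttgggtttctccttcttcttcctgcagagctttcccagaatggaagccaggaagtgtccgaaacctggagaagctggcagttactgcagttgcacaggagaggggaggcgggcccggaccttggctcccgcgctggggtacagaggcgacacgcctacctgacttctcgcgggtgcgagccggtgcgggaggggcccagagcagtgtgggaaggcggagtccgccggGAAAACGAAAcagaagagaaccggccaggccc
Oas1a, chr5:120907476-120907775, minus strand: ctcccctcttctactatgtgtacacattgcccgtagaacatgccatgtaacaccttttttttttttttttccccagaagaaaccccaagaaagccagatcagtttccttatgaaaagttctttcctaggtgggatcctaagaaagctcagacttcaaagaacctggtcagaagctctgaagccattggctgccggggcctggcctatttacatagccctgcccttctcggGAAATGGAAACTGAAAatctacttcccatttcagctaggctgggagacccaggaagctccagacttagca
Rsad2, chr12:26456403-26456702, minus strand: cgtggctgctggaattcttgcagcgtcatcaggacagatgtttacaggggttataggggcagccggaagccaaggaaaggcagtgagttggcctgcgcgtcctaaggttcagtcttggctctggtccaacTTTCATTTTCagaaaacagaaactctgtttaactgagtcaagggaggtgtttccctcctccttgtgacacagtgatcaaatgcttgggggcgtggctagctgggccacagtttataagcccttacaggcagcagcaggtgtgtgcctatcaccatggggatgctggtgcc
Oasl2, chr5:114896684-114896983, plus strand: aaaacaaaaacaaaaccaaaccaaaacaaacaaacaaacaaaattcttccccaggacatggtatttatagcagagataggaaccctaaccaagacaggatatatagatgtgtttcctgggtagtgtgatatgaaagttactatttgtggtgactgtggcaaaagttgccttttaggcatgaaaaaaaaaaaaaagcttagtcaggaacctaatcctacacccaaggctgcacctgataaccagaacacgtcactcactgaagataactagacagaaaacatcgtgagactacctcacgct
In Oas1a, 2 overlapping cores began 20 and 14 bases before the annotated start. The single core of Eif2ak2 began 18 bases after it, and that of Rsad2, read on the opposite strand, 120 bases before it. A match is a description of the letters and not a binding site.

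**Figure D1:**
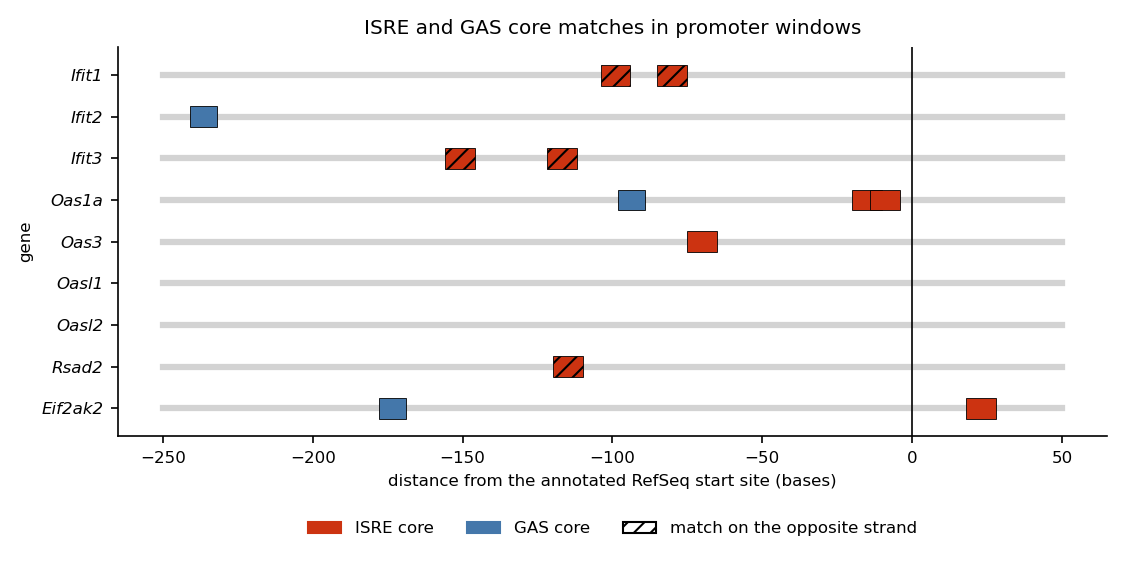
Matches to the ISRE core (red) and the GAS core (blue) in promoter windows of 9 antiviral effector genes, by distance in bases from the annotated RefSeq start. Hatched boxes are matches on the opposite strand, Ifit1, Ifit3 and Oas1a have 2 ISRE cores each, and the 2 windows of Ifit2, one of which holds neither motif, share a row.

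The genes lie on 4 chromosomes (GENCODE M21, GRCm38). Ifit1 (Entrez gene 15957), Ifit2 (15958) and Ifit3 (15959) sit next to each other on the plus strand of chromosome 19, from 34550694 at the start of Ifit2 to 34650009 at the end of Ifit1. Oas2 (246728), Oas3 (246727) and Oas1a (246730) lie together on chromosome 5, minus strand, from 120730333 to 120907521. Oasl2 (23962) and Oasl1 (231655) are neighbours on the plus strand of the same chromosome, from 114896936 to 114937915. Rsad2 (58185) is on chromosome 12, minus strand, from 26442746 to 26456452, and Eif2ak2 (19106) is on chromosome 17, minus strand, from 78852564 to 78882573. Oas1a has near-identical neighbours such as Oas1g, and Ifit1 and Ifit3 have the copies Ifit1bl1 and Ifit3b, so the counting could have split or lost their reads.

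The libraries held 9001051 to 13859727 reads on genes, and 1 read was worth 0.775 to 1.17 normalized counts. Values under 3 reads were taken as not detected, a limit for counting error alone. Stat3, whose β isoform is absent in Δβ cells, was counted per gene, so the isoform could not be checked here. Its total overlapped between the genotypes in both organs, with a log2 fold change of Δβ against WT of -0.32 in SP (standard error 0.16, adjusted p = 0.375, limma) and -0.10 in BM (standard error 0.16, adjusted p = 1.0, limma). All 8 blast markers, among them Ptprc, Hoxa9, Meis1 and Mpo, were present in every group. WT SP replicate 3 stood apart from its group, with the granule enzyme Mpo at 40587 normalized counts against 5947 in replicate 1 and 5256 in replicate 2. Of markers of other cells, all 4 globin genes were at 0 in every library. Of the 9 macrophage markers, C1qa, C1qb and C1qc did not exceed 30.8 normalized counts, while Vcam1 reached 5511 and Hmox1 3925. The 9 summed to 2374 to 5453 for WT SP and 1604 to 3106 for Δβ SP. For BM the sums were 4908 to 7193 with WT and 2365 to 3371 with Δβ, without overlap. Vcam1 alone of the 9 separated the genotypes there, at 1244 to 2131 normalized counts for Δβ against 2910 to 5511 for WT. C1qa, C1qb, C1qc, Cd5l, Spic, Hmox1, Slc40a1 and Axl did not, so the markers as a set were not higher with WT in BM. In SP, Hmox1 was higher with WT without overlap, at 314 to 3925 normalized counts against 167 to 300 for Δβ. So was Slc40a1, at 684 to 1105 against 515 to 605. C1qa, C1qb, C1qc, Vcam1, Cd5l, Spic and Axl overlapped in SP. The part of the macrophage markers in the results below was not tested. The 5 T and NK cell markers summed to 219 normalized counts in Δβ BM replicate 1 and 71.3 in Δβ SP replicate 1, and to between 2.24 and 27.8 in the other 10 libraries. Their part in the results below was not tested.

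The levels of the 10 genes were compared as normalized counts per kilobase of exon, the scale that allows genes of different length to be set side by side. Oas1a and Eif2ak2 stood at the top, with means over the 12 libraries of 163 ± 51.3 and 144 ± 23.7 normalized counts per kilobase (SD, n = 12). Oas1a was above Eif2ak2 in 9 of 12 libraries, and their ranges overlapped. Eif2ak2 was above Ifit2 in all 12 libraries, with no overlap of the ranges. Ifit2 followed at 66.0 ± 21.6, Oas2 at 62.3 ± 27.2 and Oas3 at 35.6 ± 20.5 normalized counts per kilobase (SD, n = 12). Ifit2 and Oas2 could not be ordered, since Ifit2 was the higher in 9 of 12 libraries, whereas Oas2 was above Oas3 in all 12. Oasl2, at 8.64 ± 7.80 normalized counts per kilobase (SD, n = 12), was below Oas3 in all 12. Its place rested on the Δβ libraries, with group means of 16.7 in Δβ SP and 11.2 in Δβ BM against 3.59 in WT SP and 3.02 in WT BM, and it was above Ifit3 in 8 of 12 libraries. Means over the 12 libraries were 4.37 for Ifit3, 4.07 for Oasl1, 3.47 for Ifit1 and 3.47 for Rsad2 in normalized counts per kilobase, and no order can be given among Oasl2 and these 4. Ifit1 and Ifit3, with 1 to 17 reads in each library, had means of under 10 normalized counts and were not in the test, which 8 of the 10 genes entered.

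**Figure D2:**
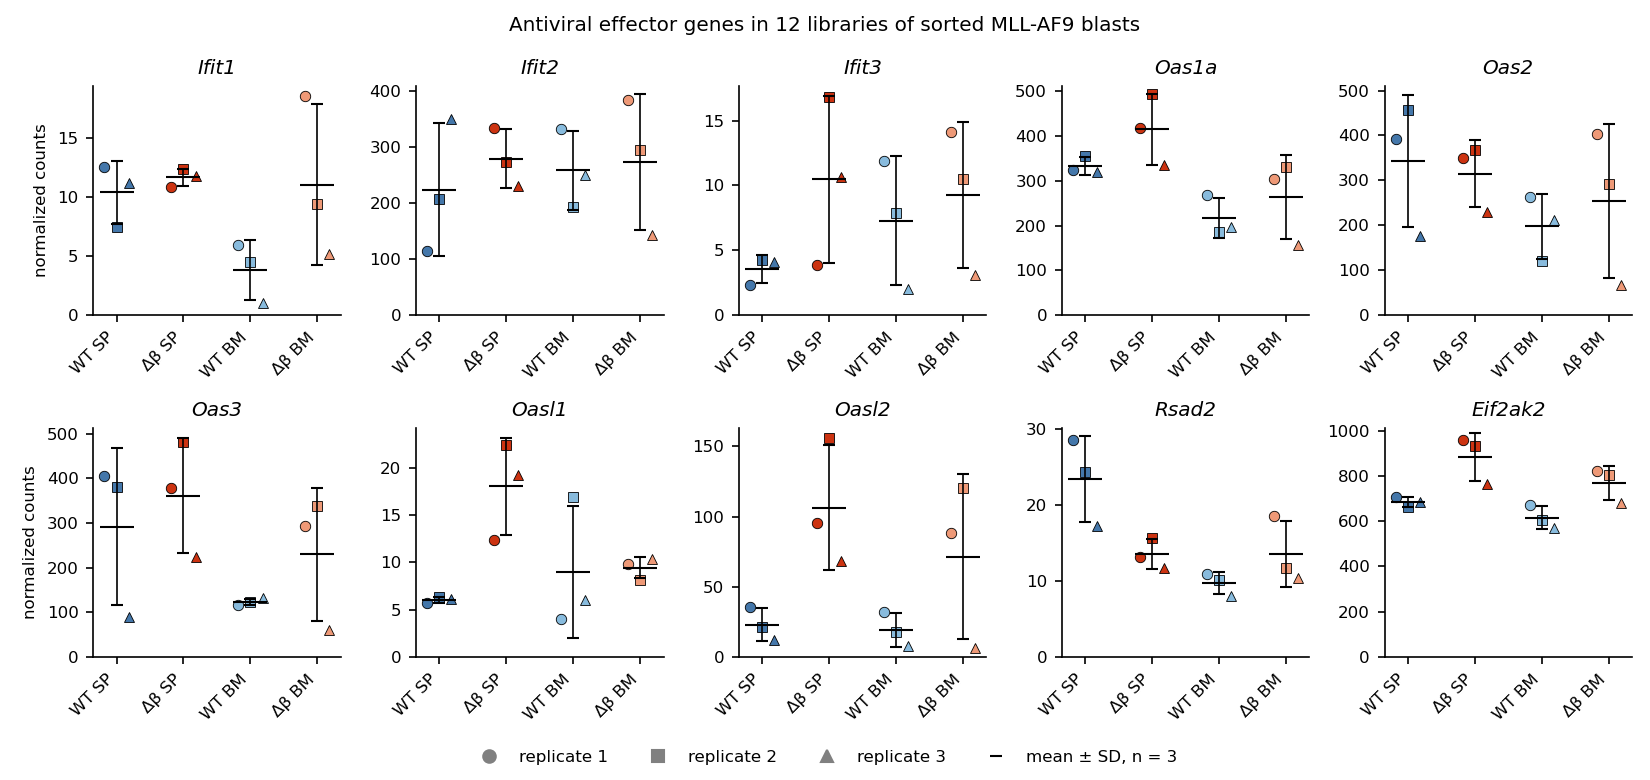
Normalized counts (vertical axes, linear from 0) of the 10 genes in the 3 libraries of WT SP, Δβ SP, WT BM and Δβ BM, with marker shape giving the replicate and black bars the mean ± SD (n = 3). The Δβ points of Eif2ak2 lie above the WT points in both organs, and the Δβ BM replicate 3 triangle is the lowest of that group in every panel but Oasl1.

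In blasts from SP, the clearest separations between the genotypes were those of Eif2ak2, Oasl1 and Oasl2, which were higher in all 3 Δβ libraries than in any WT library, and of Rsad2, which was lower. None of these differences passed an adjusted p of 0.05. Tested by limma after adding 1 and taking log2, 0 of the 8 tested genes had an adjusted p under 0.05 in SP, where 0.105% of the 11476 genes tested did. In the same test 3 of the 8 were higher in Δβ SP at an unadjusted p under 0.05, against 5.93% of all genes tested, and 0 of the 8 were lower, against 8.96%. The groups did not overlap for 3 of the 8 genes with Δβ above WT, against 7.92% of all genes, and for 1 with Δβ below WT, against 9.37%. Oasl1 is in both counts of 3, and it met the minimum mean of 10 through Δβ SP alone, so that it had to differ, and without it both counts are 2. With edgeR's quasi-likelihood test on the recovered reads 0 of 8 had an adjusted p under 0.05, as did 0.0349% of all genes, and the same 3 were higher at an unadjusted p under 0.05, against 6.4%. DESeq2 gave 0 of 8 against 3.98%, and the same 3 against 6.71%. When 1 of the 6 SP libraries was left out, 1 to 3 of the 8 had an unadjusted p under 0.05 in limma, with 1 each without Δβ SP replicate 1 (Oasl1) and without Δβ SP replicate 2 (Eif2ak2). These are bulk libraries, so fewer cells of a type and less RNA per cell cannot be told apart. The median log2 fold change of the 8 genes was 0.40 in SP, beside -0.01 for all genes.

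PKR is made constitutively in most cells and raised further by IFN. Normalized counts of Eif2ak2, in the order of the replicates, were 709, 661 and 684 for WT SP and 959, 932 and 764 for Δβ SP. Its means were 685 ± 23.8 in WT SP and 885 ± 106 in Δβ SP (SD, n = 3). All Δβ SP libraries were above all WT SP libraries, replicate 3 by the smallest margin. The log2 fold change was 0.36 (standard error 0.12, 95% interval 0.10 to 0.63, unadjusted p = 0.0125 and adjusted p = 0.248 from limma), which is 1.29-fold.

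BM showed 669.8, 606 and 569 normalized counts of the same gene in the WT libraries and 821, 806 and 683 in the Δβ libraries. Again no Δβ library overlapped the WT libraries, and the gap was smallest for Δβ BM replicate 3. For BM limma gave a log2 fold change of 0.32 (standard error 0.12, 95% interval 0.05 to 0.59, unadjusted p = 0.0229 and adjusted p = 1.0 from limma). Eif2ak2 was the single gene of the 8 with Δβ above WT without overlap in both organs, which held for 0.863% of all genes tested. When each SP library was averaged with the BM library of its genotype and number, leaving 3 means against 3, its log2 fold change was 0.34 (standard error 0.11, 95% interval 0.08 to 0.60, unadjusted p = 0.0170 and adjusted p = 0.401 from limma). In that test over both organs 0 of the 8 genes had an adjusted p under 0.05, against 0.148% of all genes, and 1 of 8, Eif2ak2, had an unadjusted p under 0.05 on the higher side, against 3.41%. The spread of Eif2ak2 was the smallest of the 8 genes, its standard error of 0.12 comparing with 0.21 for the median gene and 0.46 for the median of these 8.

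Oasl2, one of the mouse synthetase-like proteins, had the largest fold of the 8 genes. There were 35.3, 21.2 and 12.2 normalized counts for WT SP and 95.3, 156 and 68.3 in Δβ SP. The lowest Δβ SP library was above the highest WT SP library. On the log2 scale the change was 2.21 (standard error 0.93, 95% interval 0.16 to 4.26, unadjusted p = 0.0372 and adjusted p = 0.312 from limma), and the ratio of the means was 4.65. Without WT SP replicate 3 the log2 fold change was 1.84 (unadjusted p = 0.107, limma). The BM values were 31.8, 18.02 and 8.06 normalized counts for WT and 88.1, 120.3 and 6.21 in Δβ. Δβ BM replicates 1 and 2 were above all WT BM libraries, and Δβ BM replicate 3 was below all of them. For BM limma gave a log2 fold change of 1.26 (standard error 0.93, 95% interval -0.79 to 3.31, adjusted p = 1.0 from limma), and 2.55 without Δβ BM replicate 3 (unadjusted p = 0.00166, adjusted p = 0.394 from limma) but 0.51 without Δβ BM replicate 2. Over both organs it was 1.73 (standard error 0.73, 95% interval -0.00 to 3.47, unadjusted p = 0.0502 and adjusted p = 0.506 from limma).

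Oasl1, the other synthetase-like gene, lacks synthetase activity and is known to restrain translation of the Irf7 message. There were 5.70, 6.36 and 6.09 normalized counts for WT SP and 12.4, 22.4 and 19.2 in Δβ SP, from 5 to 6 reads in each WT SP library and 16 to 20 in each Δβ SP library. The group means were 6.05 and 18.01, beside 8.97 in WT BM and 9.44 in Δβ BM, so Oasl1 passed the filter through Δβ SP alone and its difference in SP is a description. The groups did not overlap, and this was the only one of the 8 genes for which Δβ BM replicate 3 and Δβ SP replicate 3 were not the lowest of their groups. In SP this was a log2 fold change of 1.39 (standard error 0.50, 95% interval 0.28 to 2.503, unadjusted p = 0.0184 and adjusted p = 0.275 from limma). BM libraries had 3.97, 16.9 and 6.04 normalized counts for WT and 9.78, 8.18 and 10.4 in Δβ. WT BM replicate 2 alone was above the Δβ BM libraries. For BM limma gave a log2 fold change of 0.28 (standard error 0.50, 95% interval -0.83 to 1.39, adjusted p = 1.0 from limma), and -0.11 without WT BM replicate 1.

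Viperin was in the opposite order in SP. Rsad2 had 28.5, 24.4 and 17.3 normalized counts in WT SP and 13.2, 15.7 and 11.7 in Δβ SP. All WT SP libraries were above all Δβ SP libraries, and the means were 23.4 ± 5.69 and 13.5 ± 1.99 (SD, n = 3). The log2 fold change was -0.73 (standard error 0.36, 95% interval -1.52 to 0.07, unadjusted p = 0.0702 and adjusted p = 0.368 from limma), and -0.92 without WT SP replicate 3 (unadjusted p = 0.0462 and adjusted p = 0.137 from limma). BM libraries had 10.9, 10.1 and 8.06 normalized counts for WT and 18.5, 11.7 and 10.4 in Δβ. These groups overlapped, and the log2 fold change was 0.41 (standard error 0.36, 95% interval -0.39 to 1.21, adjusted p = 1.0 from limma). The genotype difference in SP minus that in BM was -1.13 on the log2 scale (standard error 0.51, 95% interval -2.26 to -0.01, unadjusted p = 0.0490 and adjusted p = 0.926 from limma). In this test of the difference 0 of the 8 genes had an adjusted p under 0.05, as did 0% of all genes, and 1 of 8, Rsad2, had an unadjusted p under 0.05 on the lower side, against 1.95%. At an adjusted p under 0.05 edgeR gave 0 of 8 against 0% of all genes and DESeq2 0 of 8 against 0.0261%. On the lower side at an unadjusted p under 0.05 edgeR gave 1, Rsad2, against 2.41% and DESeq2 gave 0 against 3.2%.

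For the 3 oligoadenylate synthetases the genotypes overlapped in both organs. Oas1a had 325, 355 and 319 normalized counts in WT SP and 418, 494 and 335 in Δβ SP. It had 269, 185 and 196 in WT BM and 303, 332 and 156 in Δβ BM. WT and Δβ overlapped in both organs, with Δβ BM replicate 3 the lowest of the 12 libraries. Δβ differed from WT by a log2 fold change of 0.30 in SP (95% interval -0.29 to 0.90, adjusted p = 0.576, limma) and 0.23 in BM (95% interval -0.37 to 0.82, adjusted p = 1.0, limma).

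Oas2 had 393, 457 and 177 normalized counts in WT SP and 349.5, 367 and 228 in Δβ SP. It had 263, 119 and 211 in WT BM and 402, 292 and 66.3 in Δβ BM. Replicate 3 was the lowest library of its group in WT SP, Δβ SP and Δβ BM, and the genotypes overlapped. Its log2 fold change was -0.04 in SP (95% interval -1.37 to 1.30, adjusted p = 0.979, limma) and 0.08 in BM (95% interval -1.26 to 1.41, adjusted p = 1.0, limma), intervals that reach past 1 log2 unit either way.

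Oas3, the largest synthetase, had 405, 380.5 and 90.3 normalized counts in WT SP and 378, 482 and 224 in Δβ SP. It had 116, 123 and 131 in WT BM, the tightest of the 4 groups, and 292, 338 and 60.1 in Δβ BM. WT SP replicate 3 and Δβ BM replicate 3 were far below the other libraries of their groups. The log2 fold change was 0.51 in SP (95% interval -0.98 to 2.01, adjusted p = 0.713, limma) and -0.19 there without WT SP replicate 3. In BM it was 0.56 (95% interval -0.94 to 2.05, adjusted p = 1.0, limma) and 1.34 without Δβ BM replicate 3 (unadjusted p = 0.0396, limma) but 0.11 without Δβ BM replicate 2.

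Of the IFIT genes only Ifit2 entered the test. Ifit2 had 115, 207 and 351 normalized counts in WT SP and 335, 274 and 231 in Δβ SP. It had 333, 193 and 249.8 in WT BM and 384, 294 and 144 in Δβ BM. The libraries of each group spread over 1.45- to 3.05-fold, and the genotypes overlapped in both organs. Its log2 fold change was 0.45 in SP (95% interval -0.49 to 1.38, adjusted p = 0.605, limma) and 0.01 in BM (95% interval -0.93 to 0.95, adjusted p = 1.0, limma).

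Ifit1 had 12.5, 7.42 and 11.2 normalized counts in WT SP and 10.9, 12.3 and 11.7 in Δβ SP. In BM it had 5.95, 4.51 and 1.01 in WT and 18.5, 9.34 and 5.18 in Δβ. The WT BM libraries were the lowest of the WT libraries. Ifit3 had 2.28, 4.24 and 4.06 normalized counts in WT SP and 3.88, 16.8 and 10.7 in Δβ SP. In BM it had 11.9, 7.89 and 2.01 in WT and 14.1, 10.5 and 3.11 in Δβ. Both genes overlapped between the genotypes in both organs. Without a filter on low values, limma gave Ifit1 a log2 fold change of 0.18 in SP (adjusted p = 0.952) and 1.34 in BM (adjusted p = 1.0), and Ifit3 one of 1.18 in SP (adjusted p = 0.526) and 0.35 in BM (adjusted p = 1.0).

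**Figure D3:**
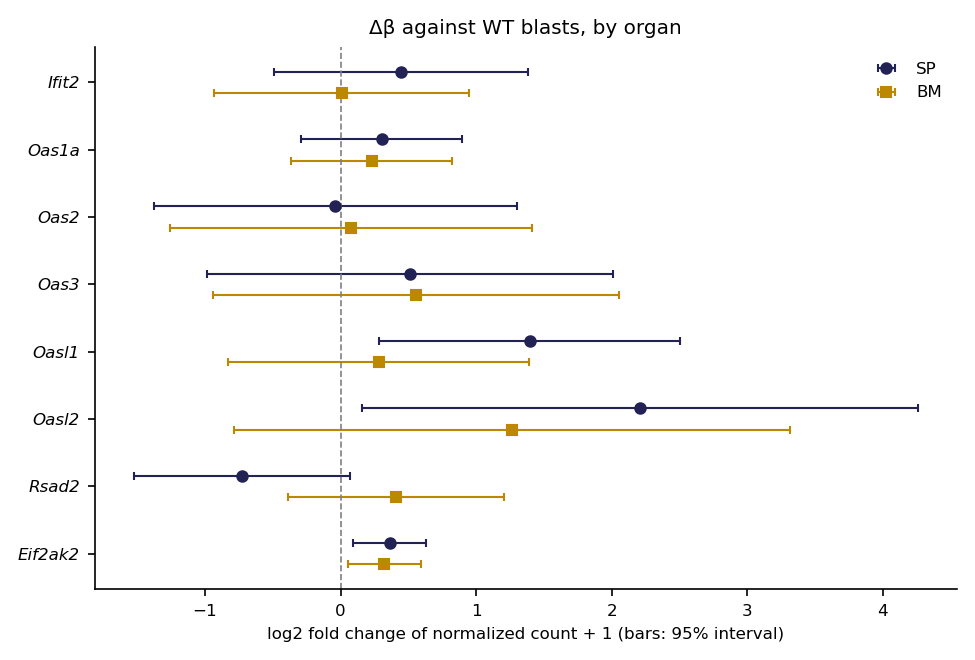
Log2 fold change of Δβ against WT blasts on the log2(normalized count + 1) scale for the 8 tested genes in SP (circles) and BM (squares), with 95% intervals from limma. The intervals of Eif2ak2 leave out 0 in both organs and those of Oasl1 and Oasl2 in SP alone, and no difference has an adjusted p under 0.05.

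In BM as a whole, 0 of the 8 genes had an adjusted p under 0.05 in limma, where 0.0697% of all genes did, and 1 of 8, Eif2ak2, was higher in Δβ at an unadjusted p under 0.05, against 1.25%. The same gene was the only one of the 8 with Δβ above WT without overlap, which held for 3.5% of all genes. With edgeR the count was again 0 of 8 at an adjusted p under 0.05, against 0.0697% of all genes, while Eif2ak2 and Oasl2, 2 of 8, stood higher in Δβ at an unadjusted p under 0.05, against 1.55%. DESeq2 gave 0 against 0.322%, and the same 2 against 1.6%. The 8 log2 fold changes ranged from 0.01 to 1.26, with a median of 0.30 beside -0.02 for all genes. Without Δβ BM replicate 3, 4 of the 8 had an unadjusted p under 0.05, namely Oas1a, Oas3, Oasl2 and Eif2ak2, all higher in Δβ, against 2.07% of all genes on that side, and still 0 an adjusted one. Without Δβ BM replicate 1, Δβ BM replicate 2, WT BM replicate 2 or WT BM replicate 3, each in turn, 0 of the 8 had an unadjusted p under 0.05. The 8 blast markers had sums of 33663 to 38998 normalized counts for WT BM against 48601 to 72550 for Δβ BM, without overlap, and of 49055 to 65763 for WT SP against 45251 to 76104 for Δβ SP. Mpo alone of the 8 separated the genotypes in BM, at 5172 to 14555 for WT BM libraries and 24214 to 41895 for Δβ BM libraries. Ptprc, Hoxa9, Hoxa10, Meis1, Itgam, Kit and Csf3r each overlapped there, so the markers as a set were not higher in Δβ BM. In SP, Itgam alone separated the genotypes, at 10941 to 26293 for WT SP and 7855 to 10473 for Δβ SP. The part of these markers in the differences in BM and in SP was not tested.

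The Δβ libraries numbered 3 stood below those numbered 1 and 2 for most of these genes. In Δβ BM, replicate 3 was the lowest of the 3 libraries for 7 of the 8 tested genes, all but Oasl1, against 35.2% of all genes tested. For 5 of the 8, Ifit2, Oas1a, Oas2, Oas3 and Oasl2, it was the lowest of all 6 BM libraries, against 21% of all genes. In Δβ SP, replicate 3 was the lowest of the 3 libraries for the same 7 genes, against 31.5% of all genes. The distance was widest for Oasl2 in BM, where the mean of Δβ replicates 1 and 2 was 16.8 times the value of replicate 3, and narrowest for Eif2ak2, at 1.19 times. For Oas2 and Oas3 in BM it was 5.24 times each. Δβ BM replicate 3 had 10105693 reads on genes, more than the 9968252 and 9001051 of Δβ BM replicates 1 and 2.

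**Figure D4:**
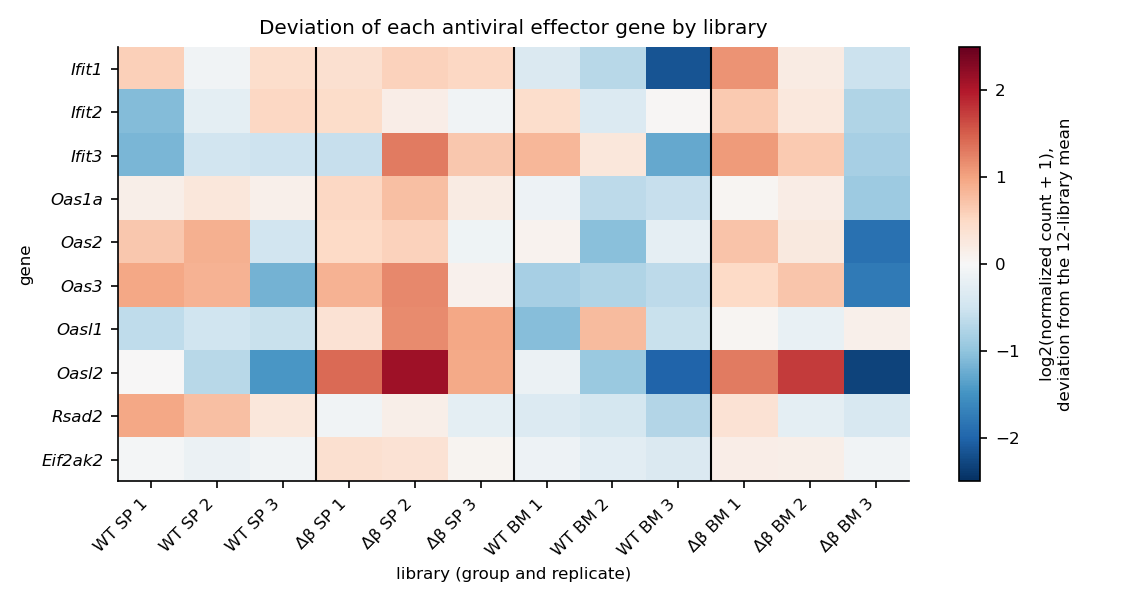
Deviation of log2(normalized count + 1) from the gene's mean over the 12 libraries, for 10 genes (rows) in 12 libraries (columns, grouped as WT SP, Δβ SP, WT BM and Δβ BM), with red above and blue below the mean. Oasl2 spans from -2.32 in Δβ BM replicate 3 to 2.12 in Δβ SP replicate 2, whereas Eif2ak2 stays between -0.36 and 0.39.

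Between the organs, Oas1a was the gene whose SP and BM libraries did not overlap in either genotype. All 3 WT SP libraries, at 319 to 355 normalized counts, were above the WT BM libraries at 185 to 269, and the Δβ SP libraries, at 335 to 494, were above the Δβ BM libraries at 156 to 332. SP above BM without overlap in both genotypes held for 1 of the 8 genes and for 0.41% of all genes. The log2 fold change of SP against BM was 0.64 in WT (standard error 0.27, 95% interval 0.04 to 1.23, unadjusted p = 0.0383 and adjusted p = 0.599 from limma) and 0.71 in Δβ (standard error 0.27, 95% interval 0.12 to 1.30, unadjusted p = 0.0235 and adjusted p = 1.0 from limma). The margin in Δβ was 335 against 332 normalized counts, between Δβ SP replicate 3 and Δβ BM replicate 2. Without Δβ BM replicate 3 the log2 fold change in Δβ was 0.37 (unadjusted p = 0.0989, limma), and without WT SP replicate 3 that in WT was 0.67 (unadjusted p = 0.0555, limma).

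Rsad2 separated the organs in WT only, with 17.3 to 28.5 normalized counts in SP and 8.06 to 10.9 in BM. Its log2 fold change of SP against BM in WT was 1.17 (standard error 0.36, 95% interval 0.37 to 1.97, unadjusted p = 0.00814 and adjusted p = 0.580 from limma), and 1.36 without WT SP replicate 3 (adjusted p = 0.0748, limma). In Δβ it was 0.03 (95% interval -0.76 to 0.83, adjusted p = 1.0 from limma), with SP at 11.7 to 15.7 and BM at 10.4 to 18.5 normalized counts. Ifit1, outside the test, had 7.42 to 12.5 normalized counts in WT SP and 1.01 to 5.95 in WT BM, also without overlap. Oasl1 had 12.4 to 22.4 in Δβ SP and 8.18 to 10.4 in Δβ BM, without overlap, and a log2 fold change of 0.83 (95% interval -0.28 to 1.94, adjusted p = 1.0, limma). Oasl1 passed the filter through Δβ SP alone, so this difference too is a description.

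For the other genes the ranges of the organs overlapped in both genotypes. Oas2 and Oas3 had log2 fold changes of SP against BM of 0.75 and 0.96 in WT and 0.63 and 0.92 in Δβ, and Eif2ak2 had 0.16 and 0.20. Oasl2 had 0.30 in WT and 1.25 in Δβ, and Ifit2 -0.31 and 0.13. Within the 3 Δβ pairs of the same number, SP was above BM in each pair for 5 of the 8 genes, Oas1a, Oas3, Oasl1, Oasl2 and Eif2ak2, against 15.7% of all genes. Oasl1 met the filter through Δβ SP alone, and without it Oas1a, Oas3, Oasl2 and Eif2ak2 remain. With the number as a block limma gave an unadjusted p of 0.0731 for Oasl2, 0.0879 for Eif2ak2 and 0.102 for Oas3 in Δβ, all with an adjusted p of 1.0. In WT, 0 of the 8 genes had an adjusted p under 0.05 in limma, as did 0% of all genes, 2 of 8 were higher in SP at an unadjusted p under 0.05, against 4.36% of all genes, and 2 of 8 had SP above BM without overlap, against 5.66%. In Δβ, 0 of the 8 genes had an adjusted p under 0.05 in limma, as did 0% of all genes. At an unadjusted p under 0.05, 1 of 8, Oas1a, was higher in SP, against 0.654%. SP was above BM without overlap for 2 of 8, Oas1a and Oasl1, against 2.92%. The filter favoured this order for Oasl1, and without it the count is 1. At an adjusted p under 0.05 edgeR gave 0 of 8 in both genotypes, against 0% of all genes in each, and DESeq2 0 of 8, against 0.967% in WT and 0.0174% in Δβ. At an unadjusted p under 0.05 edgeR had 2 higher in SP in WT, against 5.81%, and 1 in Δβ, against 0.68%, and DESeq2 had 3 in WT, against 7.2%, and 1 in Δβ, against 0.819%.

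**Figure D5:**
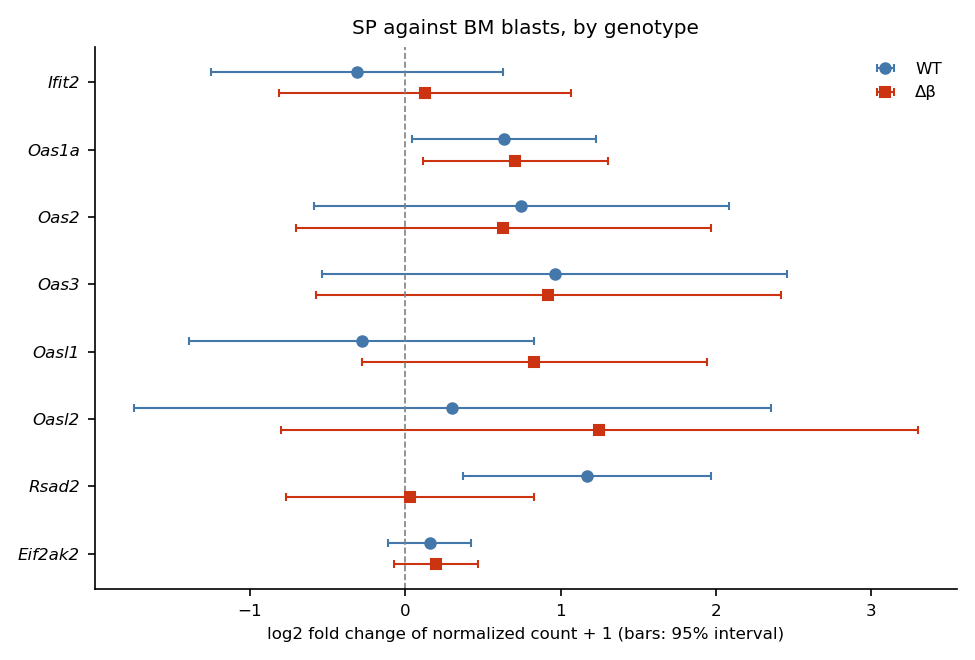
Log2 fold change of SP against BM blasts on the log2(normalized count + 1) scale for the 8 tested genes in WT (circles) and Δβ (squares), with 95% intervals from limma. The intervals of Oas1a leave out 0 in both genotypes and that of Rsad2 in WT alone, and no difference has an adjusted p under 0.05.

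The organs also differed in other markers. The 6 neutrophil markers summed to 60101 to 139413 normalized counts for WT SP and 41411 to 57518 for Δβ SP. For BM the sums were 80186 to 188865 in WT and 66603 to 101076 in Δβ. The sum of Δβ SP was thus below that of Δβ BM and that of WT SP without overlap. Of single markers, Ngp alone separated Δβ SP (24710 to 36496) from Δβ BM (38984 to 59464). Ly6g, Ltf, Mmp8, Camp and Cxcr2 overlapped there, and none of the 6 separated Δβ SP from WT SP. The 5 B cell markers, mostly Cd79b, summed to 284 to 466 normalized counts in the SP libraries and 224 to 441 in the BM libraries, which overlapped. Endothelial and stromal markers summed to 4.06 to 11.7 for WT SP against 28.2 to 44.7 for WT BM. With Δβ these sums were 1.07 to 7.75 for SP and 8.18 to 26.1 for BM. Col1a1 separated the organs in both genotypes and Cxcl12 in WT alone, while Cdh5, Kdr and Lepr overlapped. Each had a mean under 10, and their part in the organ differences was not tested. Plasmacytoid dendritic cell markers, of which Siglech is a defining one, summed to 10.1 to 20.5 normalized counts for WT SP and 1.12 to 6.41 for Δβ SP, and to 1.13 to 4.96 for WT BM and 2.34 to 11.96 for Δβ BM. Siglech alone separated WT SP (3.18 to 11.4) from Δβ SP (0), at values close to the limit of 3 reads. Siglech separated WT SP from WT BM by 3.18 against 2.98, and Ccr9 by 2.03 against 1.98. Ccr9 overlapped between WT SP and Δβ SP, and Cox6a2 and Klk1 overlapped in both comparisons. Like the sum of these markers, Rsad2 was higher in WT SP than in Δβ SP and in WT BM. All libraries came from cells sorted for Venus, and each of the 4 plasmacytoid dendritic cell markers had a mean under 10 normalized counts. Their part in the values of Rsad2 was not tested.

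The 10 genes did not vary as one. Over the 12 libraries Pearson's r between the log2 values of 2 of the genes ranged from -0.21 to 0.88 over the 45 pairs, with a median of 0.47, and 5 pairs were negative. Oas1a, Oas2 and Oas3 were the closest group, at 0.81 to 0.88. The 3 Ifit genes were at 0.21 to 0.51, the lowest of these between Ifit1 and Ifit2. Oasl2 and Eif2ak2 were at 0.85. Rsad2 had a median of 0.24 and Oasl1 of 0.23 over 9 pairs each, against 0.68 for Oasl2. The points share the genotype, the organ and the library, so these are descriptions of 12 libraries.

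The 10 other genes whose log2 values were most like the mean of the 8 standardized genes, out of 11468 compared, were Nmi, Ifi203, Mndal, Ifih1, Zbp1, Irf9, Cfb, Uba7, Msantd1 and Trim30a, with Pearson's r of 0.93 to 0.95 over the 12 libraries. Ifih1 encodes the RNA sensor MDA5, Irf9 the DNA-binding part of ISGF3 and Uba7 the activating enzyme for ISG15. Nmi, the first of them, had 336, 311 and 212 normalized counts in WT SP, 443, 445 and 299 in Δβ SP, 244, 170.1 and 224 in WT BM and 356, 307 and 159.5 in Δβ BM. Δβ BM replicate 3 was the lowest of these 12 values, which follows in part from choosing Nmi by its likeness to the 8 genes. None of the 10 had an adjusted p under 0.05 between the genotypes in limma, with log2 fold changes of 0.28 to 1.19 in SP and 0.30 to 1.73 in BM.

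Upstream of these genes, transcripts of the interferons were hardly seen. Of 18 interferon genes in the table, 15 had no read in any library, including all IFNα genes. Ifnb1 had 1 read in Δβ SP replicate 2, Ifnk at most 2 in a library, and Ifng 10 reads in Δβ BM replicate 1, 4 in Δβ SP replicate 1, 3 in Δβ SP replicate 3 and 1 in WT SP replicate 1. The libraries with most Ifng reads were those with the highest sums of T and NK cell markers. A count of 0 allows up to 3 reads, which was 2.33 to 3.50 normalized counts.

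Irf1, a transcription factor gene induced by IFNγ, had 1223, 982 and 586 normalized counts in WT SP and 2396, 2145 and 1034 in Δβ SP. For BM the values were 759, 564 and 728 in WT and 2072, 1499 and 681 in Δβ. Replicates 1 and 2 of Δβ were above all WT libraries in both organs, and replicate 3 was within the WT range. Its log2 fold change was 0.97 in SP (adjusted p = 0.329, limma) and 0.92 in BM (adjusted p = 1.0, limma). Irf7, which amplifies IFNα production, had log2 fold changes of 0.33 in SP (adjusted p = 0.807, limma) and 0.67 in BM (adjusted p = 1.0, limma), and it overlapped between the genotypes in both organs.

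Among 9 tested sensors of nucleic acids, 0 had an adjusted p under 0.05 in limma. At an unadjusted p under 0.05 there was 1 higher in Δβ SP, against 5.93% of all genes. This was Mb21d1 (the DNA sensor cGAS, named here for that count). At the same threshold 1 was lower in Δβ SP, Tlr7, against 8.96%, and 1 was higher in Δβ BM, Ddx58, against 1.25%. Tlr7, an endosomal RNA receptor, was the lower one, with 1854, 791 and 198 normalized counts in WT SP and 251, 129 and 119 for Δβ SP, which is -2.07 on the log2 scale (adjusted p = 0.290, limma). WT SP replicate 3 lay within the Δβ SP range, and without it Tlr7 passed (log2 fold change -2.94, adjusted p = 0.0247, limma), as it did with DESeq2 on all libraries (adjusted p = 0.0201) but not with edgeR. Mb21d1 also passed without that library, so that 2 of the 9 sensors did, against 16.4% of all genes in SP under that setting. Zbp1, a sensor of Z-form nucleic acid, had log2 fold changes of 1.0 in SP (adjusted p = 0.616, limma) and 1.73 in BM (adjusted p = 1.0, limma), and Ddx58, which encodes RIG-I, had -0.07 (adjusted p = 0.928, limma) and 0.75 (adjusted p = 1.0, limma).

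The 11 partners of the OAS and PKR pathways include RNase L, its inhibitor Abce1 and the phosphatase subunits that undo the action of PKR. Of these 11, 0 had an adjusted p under 0.05 in limma. In Δβ SP 1 was lower at an unadjusted p under 0.05, against 8.96% of all genes. This was Ppp1r15a, the stress-inducible phosphatase subunit, with 1406, 1103 and 1458 normalized counts in WT SP and 453, 886 and 229 in Δβ SP. The groups did not overlap, and the log2 fold change was -1.54 (adjusted p = 0.234, limma). In BM its log2 fold change was 0.24 (adjusted p = 1.0, limma). Abce1 had 0.36 in SP (adjusted p = 0.367, limma) and Ppp1r15b, the constitutive counterpart of Ppp1r15a, -0.32 (adjusted p = 0.471, limma). Without WT SP replicate 3 these were 0.54 (adjusted p = 0.0368, limma) and -0.59 (adjusted p = 0.0321, limma). Under that setting 16.4% of all genes passed in SP. With edgeR and DESeq2 0 of the 11 had an adjusted p under 0.05 in either organ.

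Of the 10 paralogs of the Ifit and Oas1 genes, 3 were tested. With limma, edgeR and DESeq2, 0 had an adjusted p under 0.05 in either organ. At an unadjusted p under 0.05 there was 1 in SP and 0 in BM with each tool. In limma the 1 was higher in Δβ SP, against 5.93% of all genes. Oas1g, next to Oas1a, had 33.0, 31.8 and 37.5 normalized counts in WT SP, 89.9, 137 and 24.6 in Δβ SP, 59.5, 10.1 and 7.05 in WT BM and 55.4, 72.4 and 0 in Δβ BM. Δβ BM replicate 3, where Oas1a was at its lowest, had no read of Oas1g. Oas1b had a log2 fold change of 0.89 in SP (adjusted p = 0.316, limma) and Oas1c of -0.15 (adjusted p = 0.818, limma).

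Of 4 negative regulators of IFN signaling, 0 had an adjusted p under 0.05 in limma. In Δβ SP 1 was lower at an unadjusted p under 0.05, against 8.96% of all genes. Socs3, a target and inhibitor of STAT3 signaling, had 1442, 321 and 175 normalized counts in WT SP and 83.7, 66.1 and 52.3 in Δβ SP, without overlap. Its log2 fold change was -2.69 in SP (adjusted p = 0.218, limma), -3.34 there without WT SP replicate 3 (adjusted p = 0.0207, limma) and 0.87 in BM (adjusted p = 1.0, limma). Socs3 also passed in SP with DESeq2 (adjusted p = 0.00225) but not with edgeR. Usp18, which removes ISG15 and blocks IFNAR, had log2 fold changes of 0.73 in SP (adjusted p = 0.635, limma) and 1.23 in BM (adjusted p = 1.0, limma), and Socs1 of 0.66 (adjusted p = 0.409, limma) and 0.06 (adjusted p = 1.0, limma).

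Other groups of IFN-induced genes were further apart between the genotypes than the 8 antiviral effectors, by value. For the 8 tested guanylate-binding protein genes the median log2 fold change in SP was 3.67 and in BM 2.83, beside 0.40 and 0.30 for the 8 effectors, and the 5 genes of ISG15 conjugation had 0.67 and 1.02. The difference between the groups was not tested. Gbp2b, Gbp4 and Gbp6 met the minimum mean only through Δβ libraries. No WT library exceeded 1.14, 5.07 and 13.2 normalized counts of them, respectively. Like Oasl1 they had to differ, and they are part of this median and of the 8 genes counted below. The median and those counts are therefore descriptions. Of the guanylate-binding proteins, 0 of 8 had an adjusted p under 0.05 in limma, against 0.105% of all genes in SP and 0.0697% in BM. In SP 7 and in BM 4 were higher in Δβ at an unadjusted p under 0.05, against 5.93% and 1.25%. With edgeR 0 of 8 passed in either organ, against 0.0349% of all genes in SP and 0.0697% in BM, and with DESeq2 7 passed in SP, against 3.98%, and 3 in BM, against 0.322%. Apart from Gbp2b, Gbp4 and Gbp6, the genes passing with DESeq2 were Gbp2, Gbp3, Gbp5 and Gbp7 in SP and Gbp2 and Gbp5 in BM. Without WT SP replicate 3, 3 of 8 passed in SP in limma, against 16.4% of all genes. Gbp2 had 1974, 2303 and 267 normalized counts in Δβ SP and 1301, 1349 and 28.0 in Δβ BM, against 20.1 to 113 in WT SP and 10.9 to 15.1 in WT BM, so replicate 3 was the lowest here too. Ube2l6, the conjugating enzyme for ISG15, was the single listed gene to pass in limma, with a log2 fold change of 3.65 in BM (adjusted p = 0.00891, limma) and 2.34 in SP (adjusted p = 0.0673, limma). Its adjusted p in BM was 0.0527 without Δβ BM replicate 1, 0.0700 without Δβ BM replicate 2 and 0.129 with the replicate number as a block (limma), and in SP 0.0157 without WT SP replicate 3 and 0.0133 without WT BM replicate 2. Its Δβ BM replicate 3, at 268 normalized counts, was above the highest WT BM library at 44.3, whereas that of Oasl2 was below the lowest.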

How the data were processed

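Poly-A RNA of sorted Venus-positive blasts was sequenced in 12 libraries, 3 for each of WT SP, Δβ SP, WT BM and Δβ BM, as the labels group them. The deposited table holds signal values, gene counts that the authors divided by DESeq2 size factors. The submitters' processing notes name FastQC, STAR, featureCounts and the build GRCm38/mm10, while strand and multi-mapping settings are not given in the sources used here. Another 6 columns with per-sample values matched no label and were not used. Division by 1 constant per library turned 100% of the values into whole reads (tolerance 0.01 reads), which served the count tests.

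The 10 genes and all gene lists were chosen with earlier results of these data known. Genes with a mean of at least 10 normalized counts (11476 of 24454, 8 of the 10) were fitted with limma 3.58.1 (trend, R 4.3.3) on log2(normalized count + 1), with 1 mean for each of the 4 groups, Benjamini-Hochberg adjustment over all genes and a threshold of 0.05. A fold on this scale understates the change of low genes. The test over both organs compared 3 genotype means, each from an SP and a BM library of 1 number, with 3. Alternatives were edgeR 4.0.16 and DESeq2 1.42.0 on the recovered reads, pseudocounts of 0.25 and 4, no filter or a minimum of 50, TMM, no trend, a replicate block, each organ or genotype alone, duplicateCorrelation for the test over both organs, and each library left out. Within Δβ, equally numbered libraries from both organs deviated together from their group means (Pearson's r 0.66, 0.61 and 0.63 for numbers 1, 2 and 3) and were taken as paired from the data, since the labels do not name animals. Named from each list were genes with an adjusted p under 0.05 or without overlap in both organs, otherwise the 3 with the largest change. Fits were tested on simulated data. Some genes of the lists, and counts that rest on them, are not reported here.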

Additional observations from a re-analysis of the deposited data

How the results depend on the processing

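None of the genes tested, which were 8, or 6 with a minimum mean of 50 (Oasl1 and Rsad2 left out), had an adjusted p under 0.05 in any of the 6 comparisons under the settings that could fit it. The lowest adjusted p of any of them over all settings ranged from 0.0638 to 0.682 for Δβ against WT in SP, from 0.350 to 1 in BM, from 0.0748 to 1.0 for SP against BM in WT, from 0.993 to 1 in Δβ, from 0.262 to 1.0 for the difference of differences and from 0.133 to 0.897 over both organs. The number of all genes with an adjusted p under 0.05 moved. In SP it was 12 in limma, 457 with DESeq2, 4 with edgeR, 2 with a minimum mean of 50, 5 with no filter, 1 with a pseudocount of 0.25, 18 with a pseudocount of 4, 1 with the replicate block, 2 for that organ alone, 3 with TMM and 3 with no trend. In BM it was 8, 37 with DESeq2, 1 with the replicate block, 3 for that organ alone and 5 with no trend. Between the organs it was 0 in WT and 111 with DESeq2, and 0 in Δβ and 2 with DESeq2. For the difference of differences it was 0 and 3 with DESeq2. Over both organs it was 17, 34 with duplicateCorrelation and 11 with no trend. The causes were not tested. Leaving out 1 library, or the SP and BM libraries of 1 genotype and number, gave 1 to 1884 genes in SP (the highest without WT SP replicate 3), 1 to 26 in BM, 0 to 604 between organs in WT, 0 to 0 in Δβ and for the difference of differences, and 2 to 56 over both organs.

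The 36 log2 fold changes of the 8 genes kept their sign in all 340 fits other than those that left out libraries, and 38 of the 648 leave-out fits turned a sign, in 12 of the 36. These ranged, for Δβ against WT, over -0.29 to 0.41 for Ifit2 in BM, -0.46 to 0.23 for Oas2 in SP, -0.43 to 0.86 for Oas2 in BM, -0.19 to 0.89 for Oas3 in SP and -0.11 to 0.81 for Oasl1 in BM. For SP against BM they ranged over -0.71 to 0.30 for Ifit2, -0.67 to 0.25 for Oasl1 and -0.18 to 0.74 for Oasl2 in WT, and -0.28 to 0.42 for Ifit2, -0.15 to 1.14 for Oas2, -0.034 to 2.002 for Oasl2 and -0.15 to 0.28 for Rsad2 in Δβ. Of listed genes, Oas1g in BM (-0.13) became 0.73 with DESeq2 and edgeR and 0.29 with a pseudocount of 4, and ranged over -1.23 to 1.87 with libraries left out. With libraries left out the range for Δβ against WT in BM was -0.087 to 0.40 for Oas1b, -0.31 to 0.36 for Oas1c, -0.022 to 0.73 for Ppp1r15a, -0.083 to 0.12 for Abce1, -0.21 to 0.047 for Ppp1r15b and -0.25 to 0.23 for Socs1, and in SP -0.21 to 0.052 for Ddx58 and -0.38 to 0.82 for Irf7. Without Δβ replicate 2 in both organs, 0 of the 8 genes had an unadjusted p under 0.05 between the genotypes in SP.

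Libraries of WT and Δβ with the same number shared only the number, with correlations of their deviations of 0.20, -0.17 and -0.01 in SP and 0.13, -0.08 and -0.09 in BM, as did WT SP and WT BM at -0.01, -0.04 and -0.24. With the replicate block 3 of the 8 genes had an unadjusted p under 0.05 in SP, 1 in BM, 2 between organs in WT, 1 in Δβ and 0 for the difference of differences, where it was 1 without the block. For Oas1a between organs in Δβ, the paired comparison, the block gave an unadjusted p of 0.00689 and an adjusted p of 1.0 in limma. The block changed no call of the 8 genes. The averaged comparison over both organs has no edgeR or DESeq2 fit, and a fit of 1 organ alone has no difference of differences. Reads under 3 in a library limit what can be said of Ifit1 and Ifit3.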
